A study of Mus musculus with 11 samples.

Results

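The 8 genes described here encode the enzymes that make serine from a glycolytic intermediate and pass its carbon into the folate cycle, and their RNA was followed in mouse natural killer (NK) cells with and without lactate dehydrogenase A (LDHA). The genes are Phgdh, Psat1, Psph, Shmt1, Shmt2, Mthfd1, Mthfd1l and Mthfd2. They were taken by symbol from a table of 24421 genes, and 8 of 8 were found and passed the filter on low counts. RNA-seq was run on NK cells that carry Ly49H, an activating receptor for a protein of mouse cytomegalovirus (MCMV), sorted from the spleens of C57BL/6 mixed bone marrow chimeras in which wild-type cells carried CD45.1 and LDHA-deficient cells CD45.2. The groups are LDHA-deficient cells titled D2 (KO D2, 3 libraries), wild-type cells titled D2 (WT D2, 3 libraries), LDHA-deficient cells titled D0 (KO D0, 3 libraries) and wild-type cells titled D0 (WT D0, 2 libraries). MCMV infection in vivo is given as the treatment of all 11 libraries, and a label of day 2 after infection stands on the D0 libraries too, so D0 and D2 are used as terms of the titles and the infection status of the D0 cells is not settled. Libraries titled WT carry a genotype entry that mentions wild-type and LDHA-deficient cells alike, and they were grouped by title. The labels give each sample as an individual mouse, and do not give the allele, the deleted part of Ldha or what drives the deletion.

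Serine synthesis starts from 3-phosphoglycerate, an intermediate of glycolysis. PHGDH oxidises it, PSAT1 adds an amino group from glutamate, and PSPH removes the phosphate to give serine. SHMT1 in the cytosol and SHMT2 in mitochondria then split serine into glycine and a carbon unit carried by tetrahydrofolate. In mitochondria MTHFD2 oxidises that unit and MTHFD1L releases it as formate, and in the cytosol the trifunctional MTHFD1 takes formate up again for the synthesis of purines and thymidylate. The pathway is known for its induction in lymphocytes that enter the cell cycle. On GRCm38.p6 the serine synthesis genes lie at chr3:98313171-98339969 (Phgdh), chr19:15905123-15925059 (Psat1) and chr5:129765558-129787443 (Psph). The hydroxymethyltransferase genes lie at chr11:60788897-60811265 (Shmt1) and chr10:127517123-127522444 (Shmt2), and the folate enzymes at chr12:76254406-76319820 (Mthfd1), chr10:3972892-4167081 (Mthfd1l) and chr6:83305704-83326011 (Mthfd2).

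The DNA before the start sites is shown for 3 members that differed most in how their RNA moved between D0 and D2, Shmt1 and Mthfd2 with the largest differences and Mthfd1l with the smallest in KO cells among the folate cycle enzymes. Each line gives 250 bases upstream of a start in the RefSeq promoter table (GRCm38.p6), written 5′ to 3′ on the gene's strand, with CCAAT, or ATTGG where it lies on the opposite strand, in capitals. The windows are chr11:60811266-60811515 (minus strand) for Shmt1, chr6:83317605-83317854 (minus strand) for Mthfd2 and chr10:3972825-3973074 (plus strand) for Mthfd1l.
Shmt1: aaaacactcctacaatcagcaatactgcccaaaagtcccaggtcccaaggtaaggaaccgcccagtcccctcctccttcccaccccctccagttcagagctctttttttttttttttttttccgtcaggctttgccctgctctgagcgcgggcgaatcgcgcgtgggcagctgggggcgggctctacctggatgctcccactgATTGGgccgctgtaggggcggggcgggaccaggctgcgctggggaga
Mthfd2: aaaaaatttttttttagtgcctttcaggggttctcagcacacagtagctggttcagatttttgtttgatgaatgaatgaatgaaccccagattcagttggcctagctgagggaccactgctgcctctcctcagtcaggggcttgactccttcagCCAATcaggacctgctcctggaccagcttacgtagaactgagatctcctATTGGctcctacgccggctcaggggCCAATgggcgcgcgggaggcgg
Mthfd1l: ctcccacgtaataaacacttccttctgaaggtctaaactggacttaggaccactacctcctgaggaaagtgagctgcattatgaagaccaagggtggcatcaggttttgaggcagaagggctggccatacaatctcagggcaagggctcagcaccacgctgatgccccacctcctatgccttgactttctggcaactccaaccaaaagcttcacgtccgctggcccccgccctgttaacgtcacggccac
The Shmt1 window held 1 CCAAT, 47 bases before the start on the opposite strand, and the Mthfd2 window held 3, at 96, 47 and 22 bases. The Mthfd1l window held none. All 8 members matched the promoter table, in 9 windows since Psat1 has 2. CCAAT, searched on both strands, was in 6 of the 9 windows and in 33.8% of all 32851 windows of that length. The members with none were Mthfd1l and Shmt2. Its presence did not follow the day change across the members not shown. Psph held 2 CCAAT with a log2 change of 0.27 in KO and 0.31 in WT cells. Shmt2 held none with 1.78 in KO and 1.89 in WT cells. The GC box GGGCGG was in 5 of the 9 windows and in 32.7% of all. The composite element TGATGNAA that ATF4 binds with a C/EBP partner was in 0 of the 9 windows and in 3.45% of all, and the E-box CACGTG that MYC and MAX bind was in 0 of the 9 and in 6.02% of all. None of these 4 motifs contains another, and a match describes letters only. The start that the table gives for Mthfd1l, Mthfd2, Mthfd1 and Psph lies inside the span of the RefSeq gene. So does the start of 1 of the 2 Psat1 windows.

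Libraries held between 19452460 and 27992092 counts, and levels are given as CPM on the TMM scale. A floor of 3 counts is worth 0.0949 to 0.153 CPM, below every value of the 8 genes. The targeted gene Ldha averaged 109.6 ± 7.17 CPM in KO D2 and 2903 ± 179 CPM in WT D2 (SD, n = 3 each), 3.77% of the wild-type level. At D0 it averaged 99.4 ± 7.16 CPM in KO (n = 3) and 609.5 ± 66.2 CPM in WT (n = 2). The 8 markers of the sorted NK cells summed to between 8686 and 17032 CPM, with Gzma the most abundant. Single genes of that list reached down to 72.3 CPM (Eomes in KO D2). T cell markers summed to between 12.5 and 30.7 CPM, with Cd3d at 7.20 to 17.7 CPM, Cd3g at 3.66 to 11.7 CPM and Cd3e at no more than 0.995 CPM. Klra8, the Ly49H gene, ran from 419 to 493 CPM at D2, and KO D0 replicate 3 had 399 CPM against 797 to 1286 CPM in the other D0 libraries. WT D2 replicate 1 correlated with the KO D2 libraries across genes (Spearman's rho 0.984 to 0.986) about as closely as with the other WT D2 libraries (0.984 and 0.988). The fold changes and calls below were repeated without each library in turn.

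**Figure D1:**
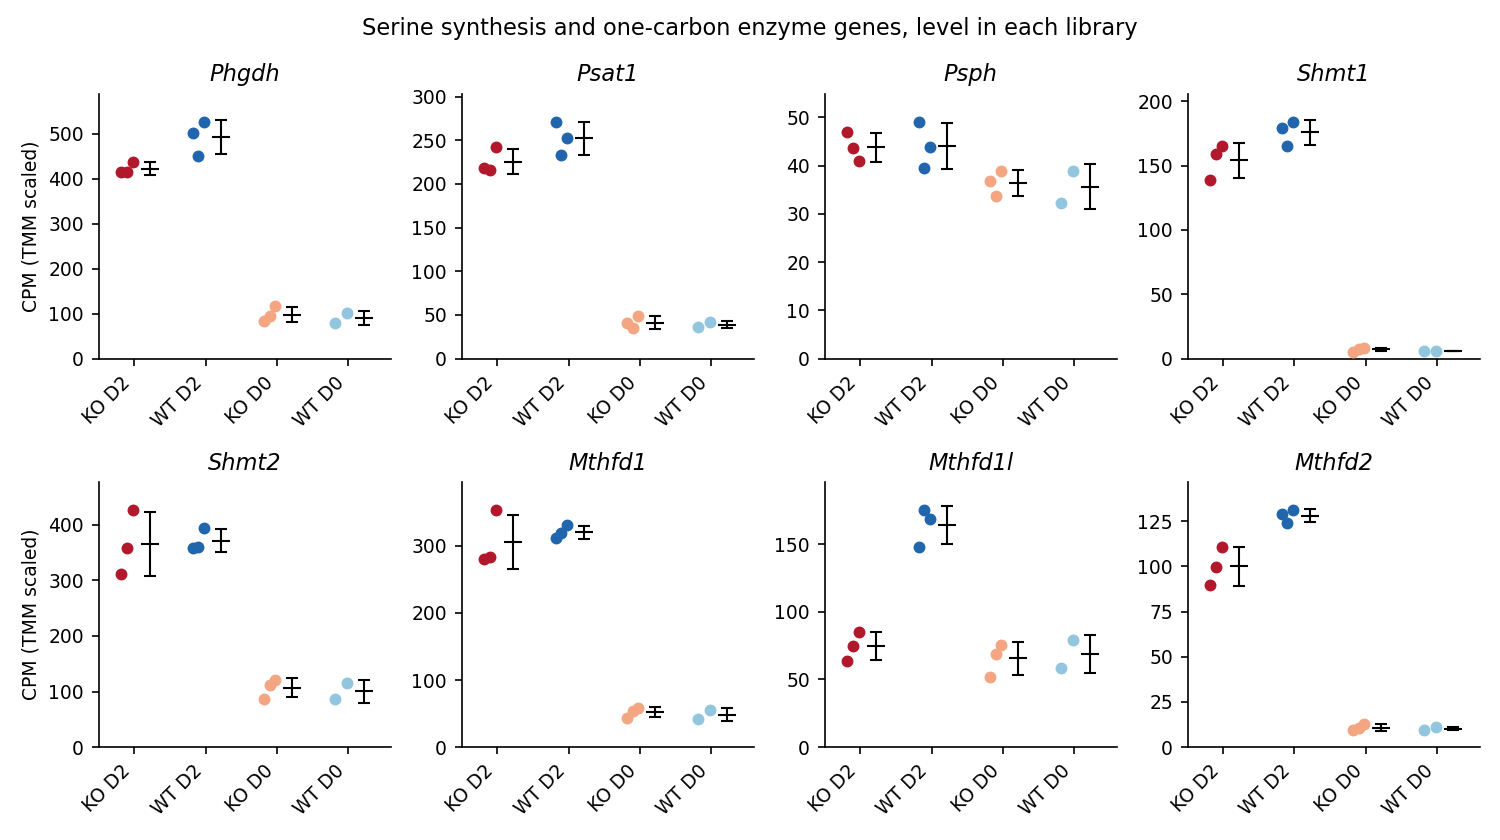
Level of each of the 8 genes in every library, in CPM scaled by TMM, with each axis starting at 0. Points are libraries of KO D2, WT D2, KO D0 and WT D0, and bars give the mean ± SD. Shmt1 and Mthfd2 were near the bottom of their axes in all 5 D0 libraries, Psph lay between 32.3 and 49.04 CPM in all 11 libraries, and Mthfd1l was high in the 3 WT D2 libraries.

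Summed over the 8 genes, RNA amounted to 1563 to 1861 CPM in KO D2, 1869 to 2034 CPM in WT D2, 357 to 480.2 CPM in KO D0 and 349 to 448 CPM in WT D0. To compare levels between genes, CPM were divided by transcript length in kilobases. In KO D2 cells Phgdh had the highest mean level per length at 223 ± 7.25 CPM per kb, ahead of Shmt2 at 159.7 ± 25.1 CPM per kb. Mthfd1 (94.5 ± 12.5 CPM per kb) and Psat1 (86.1 ± 5.53 CPM per kb) followed and overlapped between libraries, as did Shmt1 (54.1 ± 4.87 CPM per kb) and Mthfd2 (48.0 ± 5.11 CPM per kb). Psph (25.3 ± 1.73 CPM per kb) and Mthfd1l (20.2 ± 2.86 CPM per kb) came last. The order in WT D2 cells was the same for the first 6 genes, and Mthfd1l, at 44.5 ± 3.86 CPM per kb, stood above Psph, at 25.5 ± 2.77 CPM per kb.

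The order was another one at D0, and it was the same in KO and WT cells. Phgdh led with 51.7 ± 9.16 CPM per kb in KO D0 and 47.4 ± 8.29 CPM per kb in WT D0, but its libraries overlapped with those of Shmt2 (46.5 ± 7.53 CPM per kb in KO D0 and 43.9 ± 8.82 CPM per kb in WT D0). Psph, Mthfd1l, Mthfd1 and Psat1 came next in that order, with means between 14.9 and 21.0 CPM per kb over both genotypes. Mthfd2 was at 5.18 ± 0.833 CPM per kb in KO D0 and 4.93 ± 0.489 CPM per kb in WT D0. Shmt1 was lowest, at 2.50 ± 0.509 CPM per kb in KO D0 and 2.09 ± 0.0396 CPM per kb in WT D0.

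Serine synthesis and one-carbon RNAs were much higher at D2 than at D0 in both genotypes. In KO cells 6 of the 8 genes rose (Benjamini-Hochberg adjusted p under 0.05 in edgeR's quasi-likelihood test over 13711 genes), against 27.0% of all tested genes called higher and 34.5% lower. In WT cells 7 of the 8 rose, against 27.5% of all tested genes called higher and 26.0% lower. None fell in either genotype. The median log2 fold change of the 8 was 2.28 in KO and 2.58 in WT cells, beside -0.20 in KO and -0.07 in WT cells over all tested genes. Every D2 library was above every D0 library for 7 of the 8 genes in KO cells, against 29.2% of all tested genes, and for 8 of the 8 in WT cells, against 33.6%. In such bulk samples fewer cells of a type and less RNA per cell cannot be told apart.

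**Figure D2:**
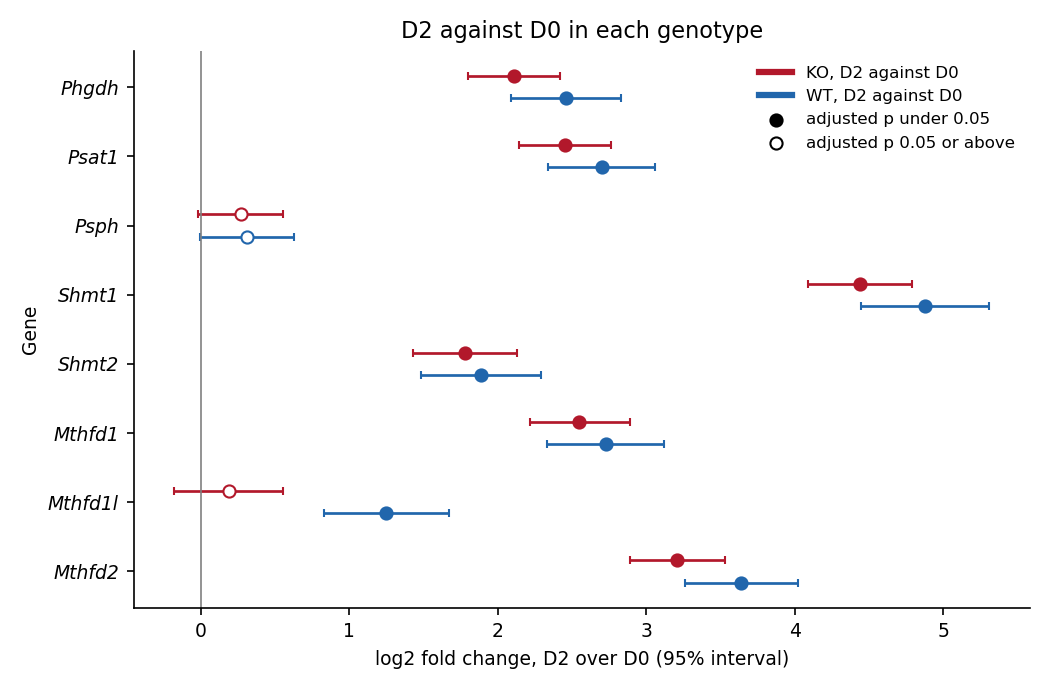
Log2 fold change of each gene, D2 over D0, with its 95% interval, in KO (upper mark of each pair) and WT cells (lower mark). Filled marks passed an adjusted p of 0.05. Shmt1 and Mthfd2 moved most in both genotypes, Psph passed in neither, and Mthfd1l passed in WT cells with 1.25 but not in KO cells with 0.19.

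Phgdh, the first and committed step of serine synthesis, had 414, 414 and 438 CPM in KO D2, 502, 451 and 526 CPM in WT D2, 82.8, 94.01 and 117 CPM in KO D0, and 78.7 and 101 CPM in WT D0. Every D2 library was above every D0 library. The rise was 4.31-fold in KO cells (log2 fold change 2.11, SE 0.14, edgeR adjusted p = 1e-07) and 5.49-fold in WT cells (2.46, SE 0.17, adjusted p = 1.7e-07).

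Psat1, the second step, had 218, 216 and 242 CPM in KO D2, 271, 233 and 253 CPM in WT D2, 40.2, 34.7 and 48.97 CPM in KO D0, and 35.8 and 41.98 CPM in WT D0. It too was higher in every D2 library than in any D0 library. The rise was 5.47-fold in KO (log2 2.45, SE 0.14) and 6.49-fold in WT cells (log2 2.70, SE 0.17).

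Psph, the last step, did not follow the other 2. It had 46.9, 43.6 and 40.9 CPM in KO D2, 49.04, 39.5 and 43.8 CPM in WT D2, 36.7, 33.6 and 38.9 CPM in KO D0, and 32.3 and 38.9 CPM in WT D0. The D2 libraries were all above the D0 libraries of their genotype, by a narrow margin. The log2 difference was 0.27 in KO (95% interval -0.02 to 0.55, edgeR adjusted p = 0.1) and 0.31 in WT cells (-0.01 to 0.63, adjusted p = 0.099). In KO cells the call depended on the scaling: with RLE size factors the log2 difference was 0.37 and passed (edgeR adjusted p = 0.035). RLE shifted the median over all genes by 0.108 in this comparison. Psph shares 88 bases of its locus with Cct6a, a highly expressed chaperonin gene with up to 20627 counts in a library, and whether the counting used strand is not given in the sources used here.

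Shmt1 showed the widest difference of the 8. The cytosolic serine hydroxymethyltransferase had 139, 159 and 165 CPM in KO D2, 179, 165 and 184 CPM in WT D2, 5.47, 7.75 and 8.18 CPM in KO D0, and 5.88 and 6.04 CPM in WT D0. At D0 this corresponds to between 146 and 222 raw counts in a library, and at D2 to between 2713 and 4439. The rise was 21.7-fold in KO cells (log2 4.44, SE 0.16, edgeR adjusted p = 9.9e-10) and 29.5-fold in WT cells (log2 4.88, SE 0.20, adjusted p = 4.2e-09).

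Its mitochondrial counterpart Shmt2 was already more abundant at D0 and rose less. It ranged from 311 to 426 CPM in KO D2, from 358 to 395 CPM in WT D2, from 87.2 to 120.4 CPM in KO D0, and was 86.1 and 115 CPM in WT D0. The rise was 3.44-fold in KO (log2 1.78, SE 0.16) and 3.70-fold in WT cells (log2 1.89, SE 0.19). The 95% intervals of Shmt1 and Shmt2 did not overlap in either genotype (4.09 to 4.79 and 1.43 to 2.13 in KO, 4.45 to 5.31 and 1.48 to 2.29 in WT), a comparison of log2 changes and not of levels.

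Among the folate cycle enzymes, the cytosolic Mthfd1 ranged from 281 to 353 CPM in KO D2, from 312 to 331 CPM in WT D2, from 43.7 to 58.5 CPM in KO D0, and was 41.7 and 55.3 CPM in WT D0. It rose 5.87-fold in KO (log2 2.55, SE 0.15) and 6.62-fold in WT cells (log2 2.73, SE 0.18).

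The mitochondrial dehydrogenase Mthfd2 had 89.6, 99.4 and 111 CPM in KO D2, 129, 124 and 131 CPM in WT D2, 9.21, 10.5 and 12.7 CPM in KO D0, and 9.57 and 11.01 CPM in WT D0. The rise was 9.27-fold in KO (log2 3.21, SE 0.15) and 12.4-fold in WT cells (log2 3.64, SE 0.18), second to Shmt1 among the 8 in both genotypes.

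Mthfd1l was the member called between days in WT cells but not in KO cells. The test of a difference between genotypes in the day change is given further below. It had 63.9, 74.9 and 84.96 CPM in KO D2, 148, 175 and 169 CPM in WT D2, 51.95, 69.2 and 75.6 CPM in KO D0, and 58.7 and 78.99 CPM in WT D0. The 3 WT D2 libraries stood above all others, and KO D2 overlapped with KO D0. In WT cells Mthfd1l rose 2.38-fold (log2 1.25, SE 0.19, edgeR adjusted p = 0.00012). In KO cells the log2 difference was 0.19 (95% interval -0.18 to 0.55, adjusted p = 0.35), and without KO D0 replicate 1 it was -0.01.

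Markers listed for other cell types also differed between days. The summed myeloid list (5 of 5 genes in the table) was 285 to 352 CPM in KO D2, 222 to 237 CPM in WT D2, 661 to 800.5 CPM in KO D0 and 729 to 739 CPM in WT D0, most of it Itgax. Lyz2 was 3.89 to 5.75 CPM in KO D2, 4.38 to 5.61 CPM in WT D2, 10.9 to 24.0 CPM in KO D0 and 20.6 to 41.7 CPM in WT D0. Csf1r reached 2.26 CPM at D2 and 9.02 CPM at D0, and Adgre1 0.953 CPM at D2 and 2.36 CPM at D0. Cd68 of that list overlapped between days in both genotypes. It was 6.65 to 10.5 CPM in KO D2, 6.63 to 9.05 CPM in WT D2, 9.48 to 12.3 CPM in KO D0 and 8.79 to 9.43 CPM in WT D0. The erythroid list (4 of its 5 genes in the table) overlapped between days (63.6 to 205 CPM in KO D2, 37.9 to 314 CPM in WT D2, 103 to 909.6 CPM in KO D0 and 191 to 812 CPM in WT D0). The B and plasma cell list was 19.9 to 31.9 CPM in KO D2, 24.9 to 36.0 CPM in WT D2, 9.55 to 15.0 CPM in KO D0 and 15.0 to 54.2 CPM in WT D0, without overlap between days in KO cells. The neutrophil list was 1.28 to 1.89 CPM in KO D2, 1.09 to 2.24 CPM in WT D2, 1.46 to 7.05 CPM in KO D0 and 4.68 to 5.40 CPM in WT D0, and the platelet list 3.03 to 5.11 CPM in KO D2, 2.04 to 3.02 CPM in WT D2, 4.23 to 7.16 CPM in KO D0 and 6.99 to 7.56 CPM in WT D0. Both were lower at D2 without overlap in WT cells. The T cell list overlapped between days, and no list gene was at 0 in all libraries. Genes of the NK list moved between days in both directions. Klrb1c, Itga2 and Eomes were lower at D2 without overlap in both genotypes, and Gzma, Prf1 and Ncr1 were higher. Klrb1c was 563 to 808 CPM in KO D2, 391 to 563 CPM in WT D2, 1429 to 1681 CPM in KO D0 and 1519 to 1649.7 CPM in WT D0. Tbx21 was lower without overlap in KO cells only, and Klra8 in WT cells only. Which cells expressed these markers was not tested, nor was the part of such cells in the day differences.

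The comparison of KO with WT cells asks how LDHA deficiency goes with the expression of these genes on each title day. At D2 Mthfd1l was lower in KO cells, at 74.6 ± 10.5 CPM in KO D2 and 164 ± 14.2 CPM in WT D2 (SD, n = 3 each), 45.5% of the wild-type level. The other 7 genes did not pass the test, so that 1 of 8 fell, against 14.5% of all tested genes called lower and 1.61% called higher (16.1% in either direction). With DESeq2 the split over all genes was 662 higher and 1956 lower, in place of 221 and 1986. The log2 fold change of Mthfd1l was -1.14 (SE 0.17, 95% interval -1.50 to -0.77, edgeR adjusted p = 0.00057). It stayed between -1.26 and -1.05 without each library in turn, with an adjusted p between 0.00017 and 0.0062.

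**Figure D3:**
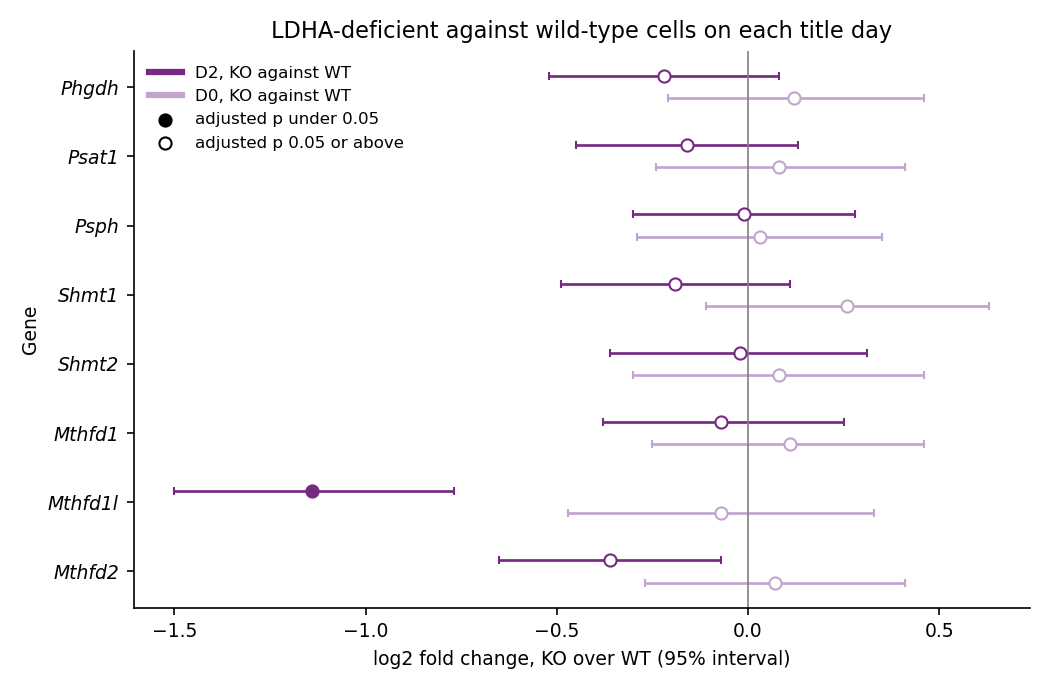
Log2 fold change of each gene, KO over WT, with its 95% interval, at D2 (upper mark of each pair) and at D0 (lower mark). Filled marks passed an adjusted p of 0.05. Mthfd1l at D2, at -1.14, is the single filled mark, and all 8 D0 intervals include 0.

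The other 7 genes had smaller differences at D2. Mthfd2 averaged 99.98 ± 10.7 CPM in KO D2 and 128 ± 3.39 CPM in WT D2 with no overlap between libraries, and its log2 fold change of -0.36 had a 95% interval of -0.65 to -0.07 and an edgeR adjusted p of 0.095. Phgdh averaged 422 ± 13.7 CPM in KO D2 and 493 ± 38.2 CPM in WT D2, also with no overlap, with a log2 fold change of -0.22 (adjusted p = 0.37). Shmt1 averaged 154 ± 13.9 CPM in KO D2 and 176 ± 9.47 CPM in WT D2 (log2 -0.19, adjusted p = 0.47), and its highest KO and lowest WT library were both at 165 CPM. With Mthfd1l these are the 4 of 8 genes whose groups did not overlap, all with lower KO values, against 21.3% of all tested genes not overlapping in that direction. Psat1 (log2 -0.16), Mthfd1 (-0.07), Shmt2 (-0.02) and Psph (-0.01) had intervals that reached from -0.45 at the lowest bound to 0.31 at the highest.

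Deviations from the group mean were weakly correlated between same-numbered KO and WT libraries at D2 (Pearson's r 0.114 to 0.217). These values do not settle whether the libraries are pairs. With the replicate number as a block within each day, 3 of the 8 genes were called lower, Mthfd1l (log2 -1.14, edgeR adjusted p = 1.6e-05), Mthfd2 (-0.36, adjusted p = 0.012) and Phgdh (-0.22, adjusted p = 0.042), against 18.6% of all tested genes called lower and 6.56% called higher in that fit (25.1% in either direction).

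Calls in this comparison were unequal across transcripts of different base composition. Peak GC is the highest GC share in any 100 bases of the transcript. Of the tested genes with a peak GC of 75% or more, 33.1% were called lower in KO D2 (n = 5297, median log2 fold change -0.36). Below 70% it was 1.35% (n = 4744, median 0.12), and between these bounds 5.01% (n = 2776, median 0.07). Mthfd1l had the highest peak GC of the 8 genes, 74%, and the others lay between 68% and 71%. With each library's dependence on peak GC taken out as an offset, an alternative chosen after seeing the data, Mthfd1l was lower by a log2 of -1.02 (edgeR adjusted p = 0.001), and Mthfd2 passed with it (-0.42, adjusted p = 0.037).

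**Figure D4:**
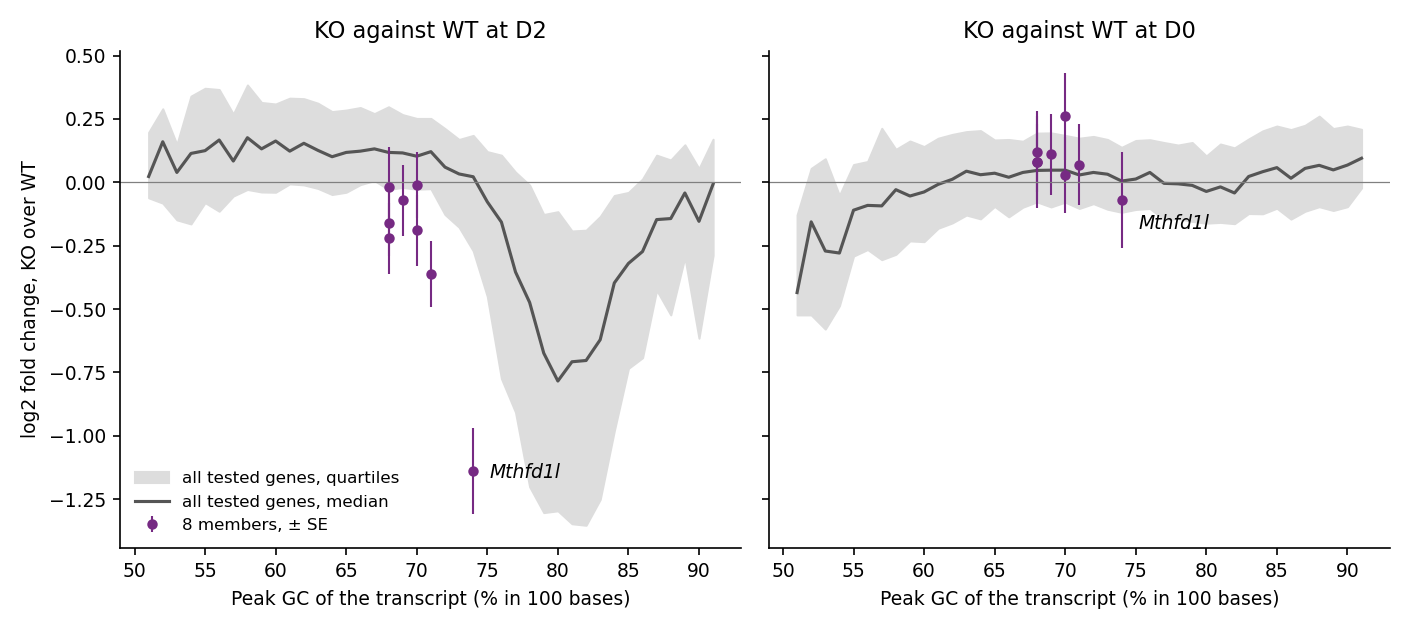
Log2 fold change, KO over WT, against the peak GC of the transcript (percent in 100 bases) at D2 (left) and D0 (right). The line and band give the median and quartiles of all tested genes per 1% bin with at least 20 genes, and points give the 8 genes ± SE. At D2 the median falls above 75% and returns towards 0 at the highest values, Mthfd1l at 74% lies far below the band, and the D0 medians stay near 0 at the peak GC of the 8 genes.

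Markers moved with genotype at D2 as well. The myeloid list was 285 to 352 CPM in KO D2 and 222 to 237 CPM in WT D2. Most of it was Itgax (269.8 to 333 CPM in KO D2 and 205 to 223 CPM in WT D2). Lyz2, Csf1r, Adgre1 and Cd68 of that list overlapped between genotypes. The platelet list was 3.03 to 5.11 CPM in KO D2 and 2.04 to 3.02 CPM in WT D2, while the erythroid, T, B and neutrophil lists overlapped. The summed NK list overlapped (13615 to 17032 CPM in KO D2 and 13233 to 14597 CPM in WT D2), and 4 of its 8 genes did not. Ncr1 (823 to 914 CPM in KO D2 and 1471 to 1595 CPM in WT D2) and Tbx21 (124 to 165 CPM in KO D2 and 290.2 to 769 CPM in WT D2) were lower in KO. Prf1 (4908 to 6053 CPM in KO D2 and 4363 to 4697 CPM in WT D2) and Klra8 (475 to 493 CPM in KO D2 and 419 to 449 CPM in WT D2) were higher in KO. At D0 Ncr1 was lower in KO too, without overlap (639.9 to 742 CPM in KO D0 and 1208 to 1408 CPM in WT D0). Tbx21, Prf1 and Klra8 overlapped at D0. The part of these markers in the result was not tested.

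At D0 none of the 8 genes was called between KO and WT cells. The count of calls was 0 of 8 with edgeR and with DESeq2, and 0 at an unadjusted p under 0.05, against 0.153% of all tested genes called. KO and WT libraries overlapped for 8 of 8 genes, whereas 16.5% of all tested genes did not overlap. The log2 fold changes ran from -0.07 for Mthfd1l (95% interval -0.47 to 0.33) to 0.26 for Shmt1 (-0.11 to 0.63).

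Whether the D2 against D0 change itself differed between genotypes was tested as a difference of the log2 changes, KO minus WT. It was negative for 8 of 8 genes and passed for Mthfd1l alone, -1.07 (SE 0.25, 95% interval -1.61 to -0.52, edgeR adjusted p = 0.03), against 5.72% of all tested genes called lower and 0.124% called higher. The call was close to the threshold. It was kept without KO D0 replicate 1 (adjusted p = 0.007) or WT D2 replicate 1 (0.015) and lost without any 1 of the other 9 libraries, with a difference between -1.30 and -0.86 and an adjusted p between 0.007 and 0.17 over all 11. RLE scaling (-0.96, adjusted p = 0.059) and the peak GC offset (-0.96, adjusted p = 0.058) lost it too, and DESeq2 kept it (-0.96, adjusted p = 0.014). With the replicate block within day it was -1.23 (adjusted p = 0.0005).

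**Figure D5:**
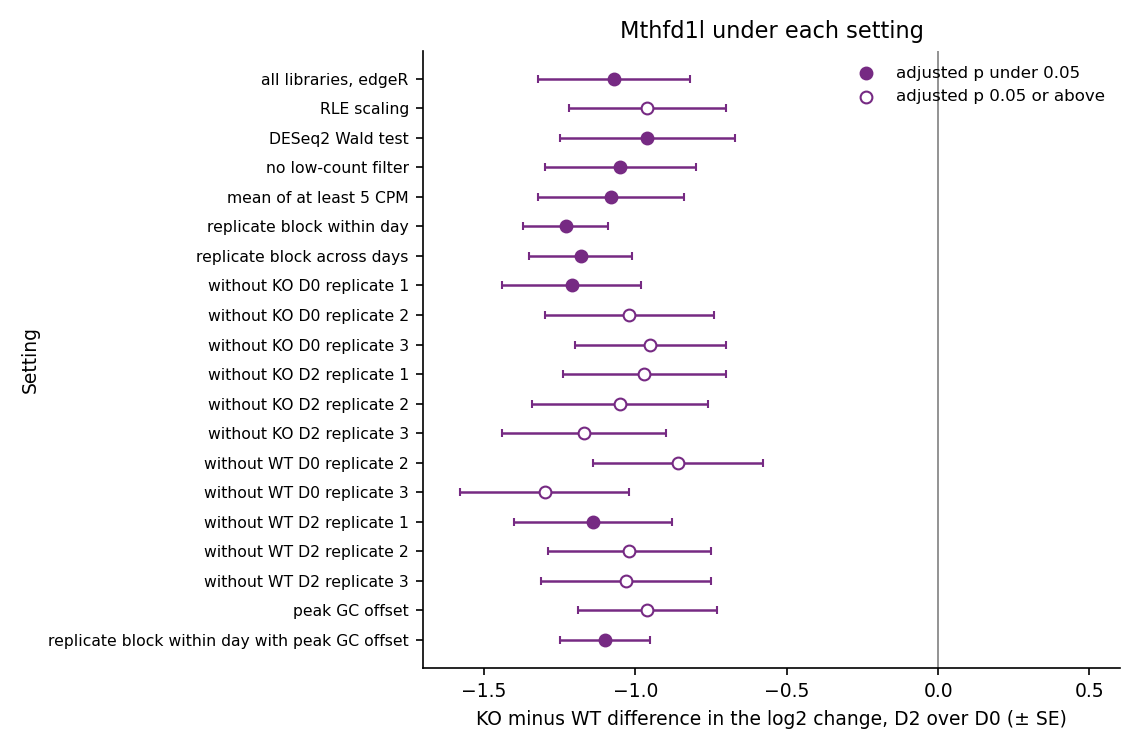
Difference between KO and WT cells in the log2 change of Mthfd1l from D0 to D2 (± SE) under each setting. Filled marks passed an adjusted p of 0.05. All values are below 0, from -1.30 to -0.86, and most of the marks that leave out 1 library are open.

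For the other 7 genes the difference ran from -0.44 for Shmt1 (95% interval -0.92 to 0.03, edgeR adjusted p = 0.33) to -0.04 for Psph (-0.47 to 0.39, adjusted p = 0.96). Mthfd2 had -0.43 (-0.87 to 0.02, adjusted p = 0.31) and Phgdh -0.35 (-0.80 to 0.10, adjusted p = 0.46). With the replicate block within day these 3 passed beside Mthfd1l, Shmt1 at -0.61 (edgeR adjusted p = 0.021), Mthfd2 at -0.53 (adjusted p = 0.034) and Phgdh at -0.46 (adjusted p = 0.018). That makes 4 of 8 lower, against 14.6% of all tested genes in that fit. The block uses the replicate numbers at D0 too, where the 2 shared numbers were not shown to pair the libraries. The pairing at D2 is not settled either.

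By pattern over the 11 libraries, Mthfd1l was most like Mcm6, a subunit of the replicative helicase (Pearson's r of log2 CPM 0.9882), then Lsm2 (0.9783), an Sm-like protein of the splicing machinery, and Caprin1 (0.9764), an RNA-binding protein. Mcm6 averaged 305 CPM in KO D2, 850.0 CPM in WT D2, 266 CPM in KO D0 and 269 CPM in WT D0, high in WT D2 as Mthfd1l was. Phgdh was most like Mcm7 (0.9985), another helicase subunit, Psat1 like the proteasome subunit gene Psmd7 (0.9990), and Shmt2 like the mitochondrial chaperone gene Trap1 (0.9985). Shmt1 and Mthfd2 were close to each other (0.9978), and Mthfd1 was most like the purine synthesis gene Gart (0.9981). The closest gene to Psph reached 0.9578. These values describe 11 libraries that fall into 2 title days, so a gene with any large day difference scores high, and no test was made.

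Counts of called genes in 5 further lists are to be read against the shares of all tested genes, between days 27.0% higher and 34.5% lower in KO cells and 27.5% higher and 26.0% lower in WT cells, and between genotypes at D2 1.61% higher and 14.5% lower (6.56% and 18.6% with the replicate block). Other genes of the folate cycle and of glycine cleavage changed between days in both directions. Of 15 tested genes of a list of 20, 6 rose and 3 fell in KO cells, and 6 rose and 3 fell in WT cells (medians -0.08 in KO and 0.12 in WT cells). Thymidylate synthase Tyms rose by a log2 of 2.30 in KO and 2.49 in WT cells, and the folate carrier Slc19a1 by 2.67 in KO and 2.74 in WT cells. The 5 genes of the list not tested, among them Gldc and Amt of the glycine cleavage system, had at most 12 counts in a library.

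By genotype at D2, 2 of the 15 fell in KO cells, a share near that of all tested genes (14.5%), and none rose (median 0.03, beside 0.01 over all tested genes). Slc25a32, the mitochondrial folate carrier, had 6.14, 6.54 and 8.28 CPM in KO D2, 17.0, 37.7 and 31.6 CPM in WT D2, 15.8, 19.6 and 16.2 CPM in KO D0, and 22.6 and 23.2 CPM in WT D0. The KO D2 libraries were the lowest of the 11, with a log2 fold change of -2.04 against WT D2 (SE 0.26, edgeR adjusted p = 0.00023). Its difference between genotypes in the day change was -1.63 (adjusted p = 0.028), kept in 3 of the 11 fits without 1 library and lost with the peak GC offset (-1.20, adjusted p = 0.081), though not with the offset and the replicate block (-1.17, adjusted p = 0.0058). Gcsh, a subunit of the glycine cleavage system, was at a log2 of -0.70 (adjusted p = 0.0095) and was called in 10 of the 11 fits without 1 library. Both have a peak GC of 77%, and with the peak GC offset Slc25a32 was at -1.58 (adjusted p = 0.00069) and Gcsh at -0.26 (adjusted p = 0.42). With the replicate block 1 rose and 2 fell.

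Genes of serine and glycine transport and use (13 tested of 18) counted 5 higher and 4 lower in KO, and 5 higher and 2 lower in WT cells, between days (medians -0.06 in KO and 0.45 in WT cells). Sfxn2, of the sideroflexin family of mitochondrial carriers, rose by a log2 of 2.23 in KO and 2.50 in WT cells, and its relative Sfxn3 fell by 2.67 in KO and 3.00 in WT cells. At D2, 4 were lower in KO cells and 1 higher (median -0.24). Sptlc2, a subunit of the serine palmitoyltransferase that starts sphingolipid synthesis, had 40.6, 41.0 and 40.8 CPM in KO D2, 83.4, 103 and 102 CPM in WT D2, 101, 133 and 128 CPM in KO D0, and 127 and 131 CPM in WT D0. Its log2 fold change was -1.24 against WT D2 (SE 0.13, edgeR adjusted p = 9.4e-05), and its difference between genotypes in the day change -1.14 (adjusted p = 0.01), which the peak GC offset took to -0.55 (adjusted p = 0.082) and the offset with the replicate block to -0.59 (adjusted p = 0.0093).

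The amino acid carriers Slc1a5 and Slc1a4 were lower in KO D2 by a log2 of -1.78 (edgeR adjusted p = 0.0038) and -1.47 (adjusted p = 0.021), and the phosphatidylserine synthase Ptdss2 by -1.46 (adjusted p = 0.0023). Slc1a4 averaged only 1.82 CPM in KO D2 and 5.08 CPM in WT D2 and was called in 6 of the 11 fits without 1 library. Sfxn2 was higher in KO D2 (log2 0.60, adjusted p = 0.0039) and in KO D0 (0.87, adjusted p = 0.034), where it was called in 2 of the 11 fits without 1 library. The 4 lower genes have peak GC values between 73% and 80%, and they passed with the peak GC offset at -1.43 for Slc1a4, -1.10 for Slc1a5, -0.79 for Ptdss2 and -0.60 for Sptlc2. With the replicate block 2 genes of the list were higher and 6 lower.

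In the methionine cycle, which takes up folate-borne methyl groups, 5 of 9 tested genes rose and 3 fell in KO cells, and 6 rose and 1 fell in WT cells (10 listed, medians 0.84 in KO and 0.99 in WT cells). Ahcy, which clears S-adenosylhomocysteine, rose by a log2 of 2.24 in KO and 2.38 in WT cells, and Mat2a, which makes S-adenosylmethionine, by 1.72 in KO and 1.66 in WT cells. By genotype at D2 the 1 gene called was Ahcyl2, a relative of Ahcy, at -0.94 (edgeR adjusted p = 0.0096), with a peak GC of 86% and -0.55 under the peak GC offset (adjusted p = 0.064, and 0.02 with the replicate block added).

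Of 5 glycolysis genes around 3-phosphoglycerate, 4 rose and 1 fell between days in each genotype (medians 0.91 in KO and 1.63 in WT cells). Gapdh rose by a log2 of 1.76 in KO and 2.08 in WT cells, Pgk1, which forms 3-phosphoglycerate, by 1.65 in KO and 1.87 in WT cells, and Bpgm fell by 1.06 in KO and 1.42 in WT cells. Pgam1, the mutase that draws 3-phosphoglycerate away from serine synthesis, averaged 406 ± 45.7 CPM in KO D2, 563 ± 8.11 CPM in WT D2, 216 ± 5.10 CPM in KO D0 and 182 ± 16.7 CPM in WT D0. It was lower in KO D2 (log2 -0.47, edgeR adjusted p = 0.0083), and its difference between genotypes in the day change was -0.71 (adjusted p = 0.027), kept in 3 of the 11 fits without 1 library. The peak GC offset ended both calls (-0.35, adjusted p = 0.065 and -0.60, adjusted p = 0.1), and the offset together with the replicate block kept both (-0.35, adjusted p = 0.01 and -0.58, adjusted p = 0.015).

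Of 4 transcription factors known to act on serine synthesis genes, 2 rose in KO and 3 in WT cells between days (medians 0.73 in KO and 0.76 in WT cells). Myc had 976, 1405 and 1130.0 CPM in KO D2, 1237, 1579.8 and 1275 CPM in WT D2, 121, 149.8 and 139 CPM in KO D0, and 134 and 133 CPM in WT D0, a log2 rise of 3.10 in KO and 3.35 in WT cells. Trp53 rose by 1.19 in KO and 1.17 in WT cells. Atf4, a stress-response factor regulated largely by translation, had a log2 difference of 0.23 in KO (edgeR adjusted p = 0.11) and 0.36 in WT cells (adjusted p = 0.038), called in 2 of the 11 fits without 1 library. None of the 4 was called between genotypes, and with the replicate block at D2 1 was higher, Nfe2l2, and 1 lower, Myc.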

How the data were processed

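RNA-seq libraries of sorted Ly49H+ NK cells were used, 11 in all. The authors deposited whole-number counts, 1 row for each Entrez ID. The submitters' processing notes name mm10 and, without saying what each did, DESeq2 1.22.2, Salmon (0.13.1, and 13.1 in another entry), Trimmomatic 0.36 and bcl2fastq 2.20.0.422, so the counts may be rounded estimates and can be split unevenly between near-identical genes. Per the labels' protocols, RNA went through a low-input amplification kit. Symbols came from RefSeq (GRCm38.p6), where 24387 of 24421 IDs matched. Transcript length and peak GC came from the longest coding transcript of the GENCODE annotation, or the longest other transcript where none was coding. A transcript of either kind was found for 93.5% of tested genes.

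Counts were tested in R 4.3.3 with edgeR 4.0.16 (quasi-likelihood, robust, TMM, filterByExpr; 13711 genes) in 1 fit of 4 group means over 11 libraries, with 7 residual degrees of freedom and 5 contrasts. Calls were made where the p adjusted over all genes (Benjamini-Hochberg) was under 0.05. Alternatives were RLE scaling, DESeq2 1.42.0, no filter, a mean of at least 5 CPM, only the compared groups, replicate blocks, leaving out each library, and, chosen after seeing the data, a peak GC offset. The intervals come from the edgeR fit, so they cover spread between libraries as well as counting error.

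To see whether replicate numbers pair libraries, each gene's deviation from its group mean was correlated between a KO library and the WT library of its number. For D2 Pearson's r was 0.217, 0.198 and 0.114, and -0.193 to 0.00511 between libraries of different numbers. The deviations of a gene in a group of 3 sum to 0, so these values depend on each other and do not prove a pairing. The blocked value is given for D2 beside the unblocked one. The D0 pairs, only 2, had 0.0275 and 0.41.

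The 8 genes, the pathway and marker lists and the rule for named genes were chosen with earlier results of these data known. The rule took the 8 genes, Ldha, up to 4 called genes per list and comparison with the largest change (where none was called, up to 3 of the lowest p), and the 3 genes most like each member among those with a mean of at least 5 CPM. The text names fewer, and settled which after their values were seen. A gene of the folate list is not reported here by name.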

Additional observations from a re-analysis of the deposited data

Results flagged for a closer look

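The difference between KO and WT cells in the D2 against D0 change of Mthfd1l was -1.07 on the log2 scale (edgeR adjusted p = 0.03). It was flagged because it passed the test of a difference between the genotypes, as did 5.84% of all tested genes. The call was kept in 2 of the 11 fits without 1 library. RLE scaling (edgeR adjusted p = 0.059) and the peak GC offset (edgeR adjusted p = 0.058) lost it. DESeq2 (adjusted p = 0.014) and the replicate block within day (edgeR adjusted p = 0.0005) kept it. In KO cells the log2 change was 0.19 and in WT cells 1.25.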

How the results depend on the processing

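In WT cells 7 and in KO cells 6 of the 8 genes were called between days without each library in turn. Over the other settings no call between days changed in WT cells. In KO cells 3 values gained a call there, that of Psph with RLE scaling among them. At D2, KO against WT, the count of 1 called gene became 2 with only the compared groups (20.6% of all tested genes called), with a replicate block across days (19.9%) and with the peak GC offset (13.8%), 3 with the replicate block within day (25.1%) and 5 with that block and the offset (24.2%), and lay between 1 and 2 without each library. For the difference between genotypes in the day change the count of 1 became 0 with RLE scaling (3.61%) and with the peak GC offset (1.42%), 4 with the replicate block within day, alone (19.1%) or with the offset (16.1%), and lay between 0 and 2 without each library. The cause was not tested.

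Signs turned in values that never passed the test. With RLE and with DESeq2, KO against WT at D2 was 0.08 for Psph, 0.07 for Shmt2 and 0.03 for Mthfd1, and the difference in the day change 0.06 for Psph and 0.00 for Shmt2. RLE shifted the median of all genes by 0.093 at D2 and by 0.103 in the difference. With only the compared groups Psph was at 0.02 at D2. At D0, Mthfd1l was at 0.09 with the replicate block within day, 0.08 with that block and the peak GC offset, and 0.04 with the block across days, where Psph was at -0.01 and, in the difference, at 0.00.

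Without each library in turn, KO against WT at D2 ran from -0.09 to 0.05 for Psph and from -0.16 to 0.06 for Shmt2. At D0 it ran from -0.07 to 0.30 for Phgdh, -0.07 to 0.19 for Psat1, -0.12 to 0.16 for Psph, -0.14 to 0.29 for Shmt2, -0.11 to 0.31 for Mthfd1, -0.30 to 0.15 for Mthfd1l and -0.07 to 0.16 for Mthfd2. The difference in the day change ran from -0.18 to 0.10 for Psph, -0.33 to 0.10 for Shmt2 and -0.39 to 0.03 for Mthfd1, and the KO day change of Mthfd1l from -0.01 to 0.24. WT D0 holds 2 libraries, and without 1 of them its spread comes from the other groups. Same-numbered KO libraries correlated across days at 0.0427, 0.011 and 0.104, so the block across days rests on a number alone.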
